A study of Mus musculus with 19 samples.

Results

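The genes described here encode the nuclear subunits of the mitochondrial respiratory chain, complexes I to IV, and of ATP synthase, complex V. They were chosen by symbol: every gene named as an Nduf subunit of the a, b, c, s or v series, as Uqcr, Cox5, Cox6b, Cox6c, Cox7b, Cox7c or Atp5, together with Sdha, Sdhb, Sdhc, Sdhd and Cyc1. The rule found 79 of the 55740 genes listed over 3 expression tables, of which 40 belong to complex I, 4 to complex II, 9 to complex III, 8 to complex IV and 18 to complex V. The rule used names only and no measured value. By name it also took in Ndufa11b, Ndufb4c and Ndufs6b, annotated as processed pseudogenes and counted here with the subunit genes. The 79 entries carry 78 symbols, because Atp5o is listed under 2 identifiers, and the second, ENSMUSG00000116933, stood at 0 in every library that lists it.

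The study followed Musclin, a peptide secreted by muscle, and its action on fat. The first table held 1 library each from heart, tibialis anterior muscle, brown adipose, small intestine, white adipose, liver and brain of C57BL/6J wild-type mice, with no treatment named and no age given for this experiment. The other 2 tables compared MCK-Musclin mice, which carry the Musclin coding sequence behind the muscle creatine kinase promoter on a C57BL/6J background, with wild-type (WT) controls, in inguinal white adipose tissue (iWAT) and in brown adipose tissue (BAT). These 12 libraries, 3 per genotype and tissue, came from chow-fed male mice aged 5 months, all kept at 8 °C for 1 week, so there was no warm group and each difference is one between genotypes in the cold. Several founder lines of the transgene were made, and which one was sequenced is not given in the sources used here. Levels are FPKM, in which fragments are scaled to a gene's exon length and to the mapped total of its library, so genes can be compared per length, while the number of reads behind each value is unknown.

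Complex I takes electrons from NADH and complex II from succinate, and both pass them through ubiquinone to complex III, cytochrome c and complex IV, where oxygen is reduced. Complexes I, III and IV pump protons, and complex V lets them back through a ring of c subunits to make ATP. Brown fat is packed with mitochondria but makes little ATP from them, since uncoupling protein 1 (Ucp1) returns the protons as heat, and in the cold some cells of inguinal white fat, the beige adipocytes, take on the same machinery. A few core subunits of complexes I, III, IV and V are encoded in mitochondrial DNA and are not among these genes.

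The promoters of many of these genes are textbook targets of nuclear respiratory factor 1 (NRF1), of the ETS factor GABP (also called nuclear respiratory factor 2), of YY1 and of the oestrogen-related receptors (ERR). RefSeq windows on GRCm38.p6, each of 300 bases from 250 before to 50 after an annotated start, existed for 62 of 75 subunit genes looked up, pseudogenes left out. Both strands were searched for the letters GCGCANGCG (NRF1), CCGGAAG (ETS), AAGATGGC (YY1) and TCAAGGTCA (ERR), and 37 of the 62 genes held at least 1 of these 4 motifs. No window held overlapping matches of different motifs. The NRF1 letters stood in 19 genes, 30.6% against 7.03% of the 27025 genes with a window. The ETS letters stood in 15, 24.2% against 9.93%, and the YY1 letters in 10, 16.1% against 3.19%. The ERR letters stood in 2, 3.23% against 0.466%. By complex, the NRF1 letters were in 8 of 32 genes of complex I, 2 of 3 of complex II, 2 of 5 of complex III, 0 of 7 of complex IV and 7 of 15 of complex V. Such a match describes letters and not binding, which was not measured. The stretches of 30 bases below are a selection that shows the NRF1, ETS and ERR motifs in genes whose levels are given in the text. The repeated NRF1 letters of Ndufb4 are added. Each is written 5′ to 3′ on the gene's strand, with the motif in capitals, and lies wholly before the RefSeq start of its window. Other annotated starts can lie further out. Stretches of Sdha, Ndufb4, Atp5k, Atp5g2 and Cox6b1 fall partly or wholly inside the GENCODE span of their gene.

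Sdha, NRF1, chr13:74350319-74350348, minus strand: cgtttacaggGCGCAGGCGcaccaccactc

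Sdha, NRF1, chr13:74350276-74350305, minus strand: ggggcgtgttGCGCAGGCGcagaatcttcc

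Sdhd, NRF1, chr9:50603909-50603938, minus strand: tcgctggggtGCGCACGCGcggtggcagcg

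Ndufb4, NRF1, chr16:37654540-37654569, minus strand: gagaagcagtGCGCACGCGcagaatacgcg

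Ndufb4, NRF1, chr16:37654428-37654457, minus strand: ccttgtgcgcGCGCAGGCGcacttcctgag

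Ndufb4, NRF1, chr16:37654371-37654400, minus strand: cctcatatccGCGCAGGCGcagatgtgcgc

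Atp5k, NRF1, chr5:108434430-108434459, minus strand: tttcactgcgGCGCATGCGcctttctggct

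Atp5g2, NRF1, chr15:102671070-102671099, minus strand: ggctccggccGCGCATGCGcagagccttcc

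Cox6b1, ETS, chr7:30626124-30626153, minus strand: tcctctcgcagCTTCCGGccagtcggaatt

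Atp5e, ETS, chr2:174464185-174464214, minus strand: tacggccacagCTTCCGGtagccgctcggc

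Atp5g3, ERR, chr2:73911359-73911388, minus strand: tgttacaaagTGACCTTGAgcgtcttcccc

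Sdha thus showed 2 such stretches and Ndufb4 showed 3. In the Cox6b1, Atp5e and Atp5g3 stretches the capitals are the motif read on the opposite strand.

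On FPKM, the subunit genes stood highest in brown adipose across the 7 tissues. An FPKM of 1 in some tissue was reached by 75 subunit genes. Of these, 56 were highest in brown adipose, 15 in heart, 3 in tibialis anterior and 1 in white adipose. The comparison set of all genes was filtered differently, on the average over the 7 tissues. Of its 14692 genes, each averaging 1 FPKM or more, 5.66% were highest in brown adipose and 3.51% in heart. The other 4 entries, Ndufa11b and Ndufs6b (both pseudogenes), Cox7b2 and the second Atp5o entry, stayed below an FPKM of 1 everywhere. The median FPKM of the 75 was 205 in brown adipose, 143 in heart, 119 in tibialis anterior, 91.8 in small intestine, 64.4 in white adipose, 59.6 in liver and 48.3 in brain. Brain held the lowest value of 43 genes, liver of 16 and white adipose of 14. With 1 library per tissue none of these orders has a replicate check.

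Whether and how far brown adipose led depended on the scaling. Mitochondrially encoded genes took 53.8% of the summed FPKM in brown adipose and 53.6% in heart, against 13.3% in white adipose. With these genes removed and the rest rescaled, 53 subunit genes were highest in brown adipose and 21 in heart. After scaling by the median ratio over genes detected in every tissue, brown adipose led in 24, tibialis anterior in 31 and heart in 20. The median over genes of the ratio of brown to white adipose was 3.22 on FPKM and 5.11 under median-ratio scaling. It was 1.90 after rescaling to TPM, where every library has the same total. All 4 scalings put at least 69 of the 75 genes higher in brown than in white adipose. White adipose RNA was extracted with a kit and RNA of the other tissues with TRIzol, and tissue and extraction cannot be told apart in that ratio.

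**Figure D1:**
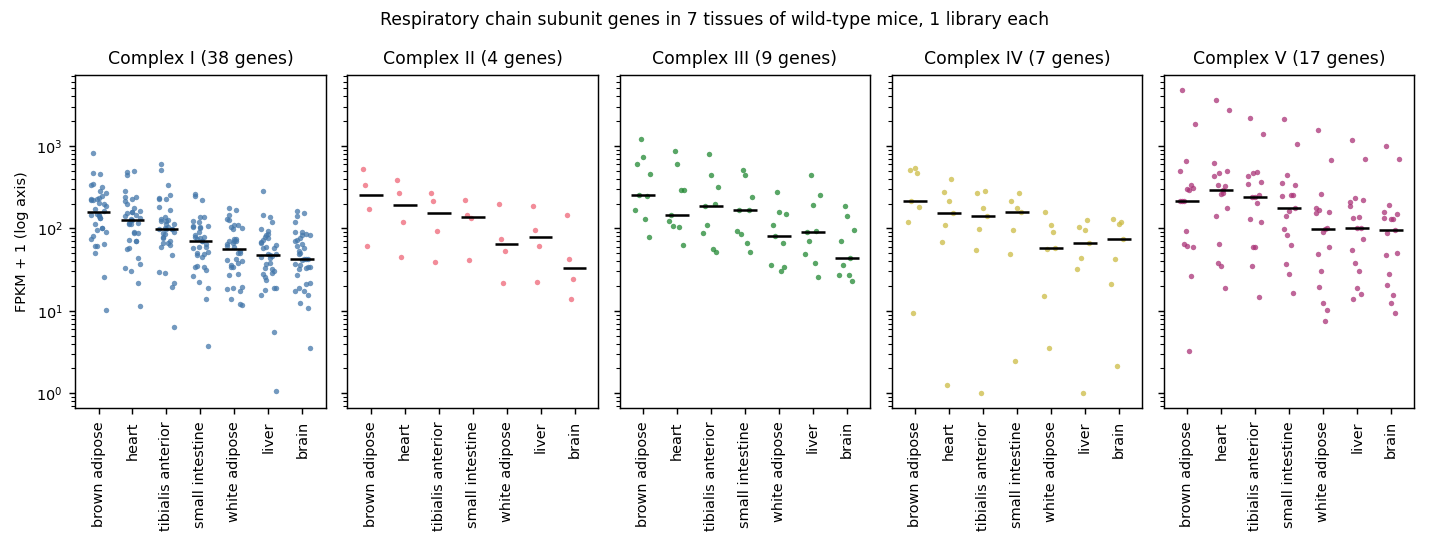
FPKM + 1 on a log axis of each subunit gene (points) and the median of its complex (black bars) in 7 tissues of wild-type mice, 1 library each, with complexes in separate panels. In complexes I to IV the median was highest in brown adipose, while in complex V heart (295) and tibialis anterior (242) lay above brown adipose (215).

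By complex, the median fold of brown over white adipose on FPKM was 3.12 for complex I and 3.13 for complex II. It was 4.48 for complex III, 3.93 for complex IV and 2.88 for complex V. Complex V was also the only one in which the median fold over white adipose was larger in heart, 2.93, than in brown adipose. All 4 genes of complex II, 8 of 9 of complex III and all 7 of complex IV that passed the filter were highest in brown adipose. In complex V 9 of 17 were highest there and 7 in heart. Those 7 were Atp5a1, Atp5c1, Atp5g1, Atp5g3, Atp5h, Atp5j and Atp5pb, encoding the alpha and gamma subunits of the catalytic part, the c ring and parts of the stalk that holds the head.

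The gene with the highest median over tissues in each complex was highest in brown adipose, while the order of the other tissues varied. Atp5b, the catalytic beta subunit of ATP synthase, was at 4819 FPKM in brown adipose, 3609 in heart, 2196 in tibialis anterior, 2145.5 in small intestine, 1574 in white adipose, 1178 in liver and 1002.5 in brain. Uqcrb, a small subunit of complex III, was at 1230.4 in brown adipose, 859 in heart, 789 in tibialis anterior, 509 in small intestine, 448 in liver, 273 in white adipose and 185 in brain. Ndufa6, an accessory subunit of complex I, was at 832 in brown adipose, 604 in tibialis anterior, 443 in heart, 286 in liver, 257 in small intestine, 176 in white adipose and 162 in brain. Brain was the low tissue for these genes, and muscle stood above heart in Ndufa6. Cox7b of complex IV was at 474 in brown adipose, 393 in heart, 281 in tibialis anterior, 269.5 in small intestine, 124 in liver, 118 in brain and 89.1 in white adipose. Sdha, the flavoprotein that oxidizes succinate in complex II, was at 527 in brown adipose, 382 in heart, 266 in tibialis anterior, 222.5 in small intestine, 195 in white adipose, 185 in liver and 144 in brain.

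Most subunit genes had the tissue profile of their complex. Pearson's r between a gene and the median of its complex, on the log2 scale over the 7 tissues, had a median of 0.922 and lay above 0.8 for 68 of 75 genes. These points share the 7 libraries and each gene is part of its own median, so r is a description. The exceptions were Ndufa11, Ndufa4l2, Ndufb2, Cox6b2 and the c-subunit genes Atp5g1, Atp5g2 and Atp5g3.

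Of the 75 genes Atp5g1 departed most from its complex. On the log2 scale its distance from the complex median spanned 5.92 between tissues, against 3.25 for Ndufa4l2, 3.13 for Cox6b2, 1.85 for Atp5g3 and 1.38 for Atp5g2. Atp5g1 (chr11:96068852-96075670, GRCm38), Atp5g2 (chr15:102662864-102672352) and Atp5g3 (chr2:73908447-73911326) encode precursors that differ in their import signals and yield the same mature c subunit of the rotating ring. Atp5g1 was at 265 FPKM in heart, 200.04 in tibialis anterior, 61.9 in small intestine, 29.8 in liver, 14.5 in brain, 6.51 in white adipose and 2.21 in brown adipose. Heart was 120 times brown adipose, and Atp5g1 was the 1 subunit gene of the 75 whose lowest tissue was brown adipose. Atp5g3 was at 176 in heart, 175 in small intestine, 119 in tibialis anterior, 72.9 in liver, 58.8 in brown adipose, 58.6 in white adipose and 49.8 in brain. Atp5g2 ran the other way at low levels, with 25.6 in brown adipose, 18.2 in heart and between 8.51 and 15.4 in the other 5 tissues. The 3 genes summed to 459 FPKM in heart and 86.6 in brown adipose.

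Measured within a library, where no scaling between libraries enters, the sum of the 3 c-subunit genes was 1.37 times the median of the 13 other complex V genes listed in all tables in heart, 1.01 times in small intestine and 0.954 times in tibialis anterior. It was 0.864 times in liver, 0.564 in brain, 0.487 in white adipose and 0.300 in brown adipose. The separate BAT table gave the same low place to this ratio in every library, with 0.129, 0.154 and 0.149 in WT and 0.142, 0.164 and 0.132 in MCK-Musclin. In iWAT the ratio was 0.379, 0.366 and 0.416 in WT and 0.331, 0.450 and 0.359 in MCK-Musclin. Every BAT library lay below every iWAT library, and within each tissue the genotypes overlapped. Atp5g1 itself was at 0.109, 2.18 and 0.269 FPKM in WT BAT and 0.355, 1.58 and 0.329 in MCK-Musclin BAT, where Atp5g3 made up 82.0% to 88.5% of the sum.

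**Figure D2:**
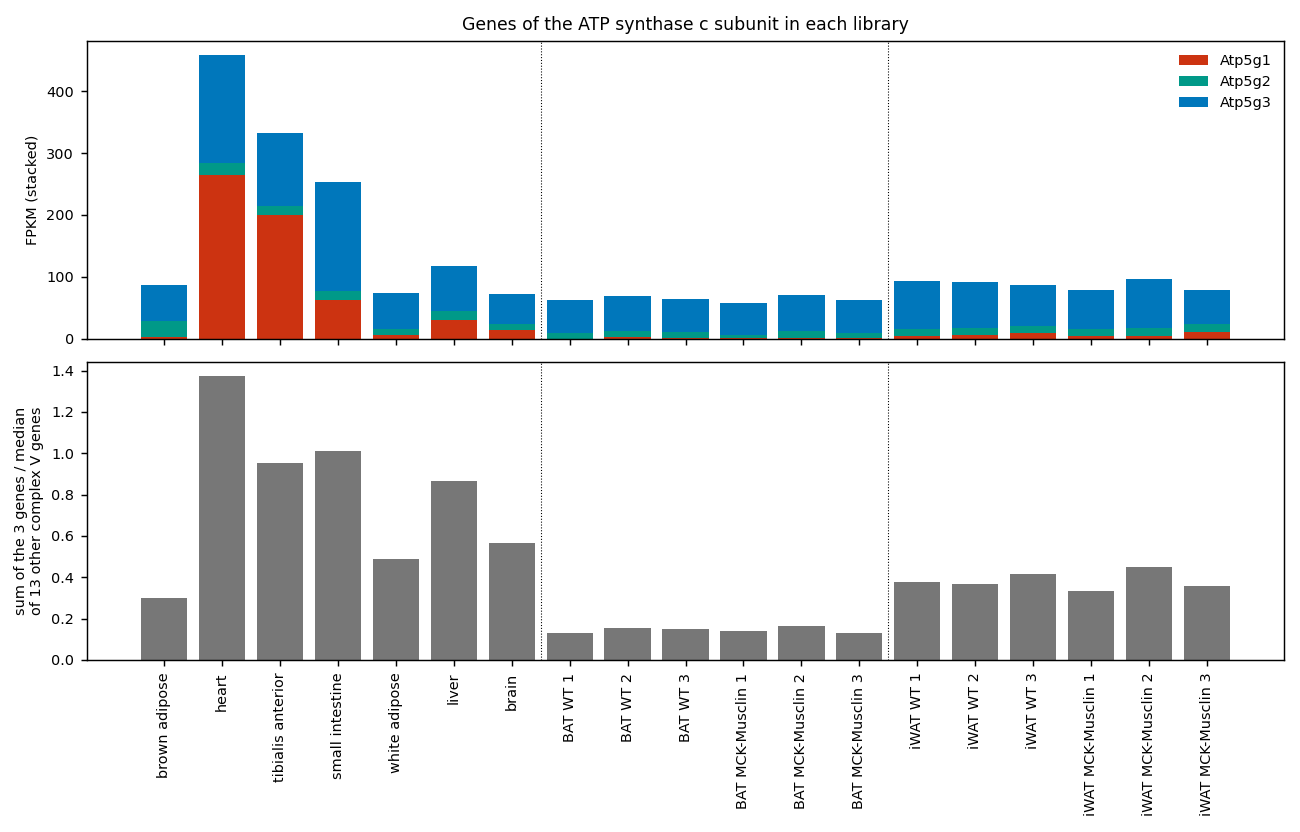
Top, FPKM of Atp5g1, Atp5g2 and Atp5g3 stacked for each of the 19 libraries. Bottom, their sum divided by the median FPKM of 13 other complex V genes in the same library, with dotted lines between the 3 tables. Atp5g1 filled most of the bar in heart (57.8%) and tibialis anterior (60.2%) and 2.56% of it in brown adipose, and the ratio was lowest in the BAT libraries.

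Other paralogs, like-named genes and single genes showed smaller or lower-level departures. Ndufa4l2, a paralog of Ndufa4 known for its induction by low oxygen, was at 10.8 FPKM in white adipose, 10.5 in heart, 9.25 in brown adipose and 0.0561 in liver, whereas Ndufa4 was at 197 in brown adipose and 57.7 in liver. Ndufa4 is counted here under complex I by its name, although its protein is now placed in complex IV. Cox6b2, known from testis, was at 8.48 in brown adipose and 2.54 in white adipose and was listed at 0 in tibialis anterior and liver, while Cox6b1 was at 216, 54.9, 98.4 and 42.5 in the same tissues. Cox7b2 was listed at 0 in all 7. Cox5a was at 120 in brown adipose and 14.3 in white adipose, and the like-named complex IV gene Cox5b, not a paralog, at 511 and 156. Ndufb5, in the membrane arm of complex I, was at 75.1 in tibialis anterior, 57.5 in heart, 48.98 in brown adipose, 34.1 in small intestine and 13.01 to 17.7 in white adipose, liver and brain. Ndufb2 was lowest in liver, at 4.60 against 10.96 or more elsewhere, and Ndufa11 was at 113 in heart and 60.7 in brown adipose. The exons of Ndufa4l2, Ndufb5, Ndufb2 and Ndufa11 overlap another gene, as do those of 29 of the 79 entries, and the alignment did not use strand.

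The first genotype comparison asked how the transgene changed inguinal fat in the cold, and no single subunit gene was called. Of the 73 subunit genes in the iWAT table, all of which passed the filter of a mean FPKM of 1, 67 were lower in MCK-Musclin than in WT, 91.8% against 38.7% of all 12197 genes tested. Their median log2 fold change was −0.17 against 0.06 for all genes. None reached an adjusted p of 0.05 in limma's moderated test with Benjamini-Hochberg adjustment, and the smallest adjusted p was 0.181. None of the other genes tested did either (0%). At an unadjusted p under 0.05, 12 subunit genes (16.4%) were lower, where 3.44% of all genes were, and 0 were higher, where 13.1% of all genes were. The groups did not overlap in 15 genes (20.5%) that were lower in MCK-Musclin, against 5.44% of all genes, and in 0 that were higher, against 17.9%.

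The libraries of the transgenic group differed among themselves. The subunit genes took 3.82%, 3.99% and 3.73% of the summed FPKM in the WT libraries 1 to 3, and 3.66%, 3.21% and 3.09% in the MCK-Musclin libraries. The median distance of a subunit gene from its WT mean, on the log2 scale, was −0.05 in MCK-Musclin library 1, −0.23 in library 2 and −0.26 in library 3. Library 1 thus lay close to WT, and libraries 2 and 3 carried most of the difference. Without library 1 the number of genes at an unadjusted p under 0.05 was 22 and the median log2 fold change −0.26. Without library 2 the number was 2, and without library 3 it was 3. Leaving out a control library gave 6 (WT library 1), 4 (WT library 2) or 8 (WT library 3).

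Markers of other cells moved between the same libraries, and their part in the result was not tested. Ucp1 was at 130, 248 and 346 FPKM in WT and at 173, 31.6 and 2.91 in MCK-Musclin. All 12 brown and beige fat markers tested were lower in MCK-Musclin, where 38.7% of all genes were. At an unadjusted p under 0.05, 6 of these markers were lower, against 3.44% of all genes. Tmem26, also on the list, was below the filter and higher, at 0.617 to 0.729 FPKM in WT and 0.754 to 1.09 in MCK-Musclin. General adipocyte markers were lower in 13 of 14, with a summed FPKM of 18214 to 19443 in WT and 16260 to 17981 in MCK-Musclin and a median log2 fold change of −0.19, close to that of the subunit genes. When each library was centred on these adipocyte markers, the median of the subunit genes became 0.03 and 0 genes stayed lower at an unadjusted p under 0.05. Centring shifts every gene of a library alike, and the median of all genes became 0.26. T cell markers were higher in 9 of 9 and B cell markers in 7 of 7, where 7482 of all 12197 genes tested were higher. Their summed FPKM was 125 to 187 and 139 to 268 in WT and 245 to 279 and 304 to 399 in MCK-Musclin. Macrophage markers were higher in 5 of 7, with overlapping sums of 473 to 533 in WT and 516 to 724 in MCK-Musclin. Fast muscle markers summed to 11.5, 866 and 4874 in WT and to 12.1, 166 and 197 in MCK-Musclin. The transgene's gene, Ostn, was at 0, 0 and 0.225 in WT and at 0, 5.17 and 4.21 in MCK-Musclin iWAT, a tissue its promoter does not target, and the MCK-Musclin library at 0 was also the one with few muscle messages. In such bulk tissue fewer mitochondria-rich cells and less message per cell cannot be told apart.

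**Figure D3:**
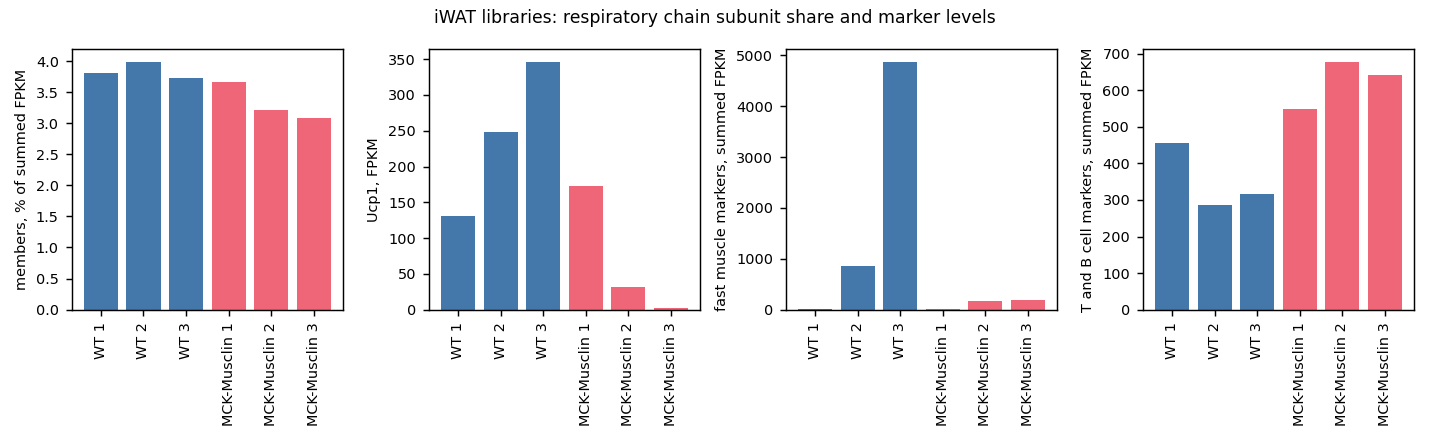
The 6 iWAT libraries (WT blue, MCK-Musclin red): the share of summed FPKM from the 73 subunit genes, Ucp1 in FPKM, and the summed FPKM of 13 fast muscle markers and of the T and B cell markers. The subunit share was lowest in MCK-Musclin libraries 2 and 3 (3.21% and 3.09%), where Ucp1 was lowest too (31.6 and 2.91), and MCK-Musclin library 1 lay near WT in both.

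Complex II showed the largest median difference in iWAT, a log2 fold change of −0.31, with all 4 genes lower and 3 of them at an unadjusted p under 0.05. The difference between complexes was not tested. Sdha was at 274, 252 and 261 FPKM in WT and at 246, 192 and 202 in MCK-Musclin, so the groups did not overlap but library 1 was just under the lowest WT value. Its log2 fold change was −0.31 ± 0.12 (SE, n = 3 per group, limma, adjusted p = 0.269). Sdhb, the iron-sulfur subunit, was at 134, 143 and 167 in WT and at 134, 117 and 100.4 in MCK-Musclin, with a log2 fold change of −0.34 ± 0.14 (adjusted p = 0.285, limma). MCK-Musclin library 1 overlapped WT here. Sdhd, one of the membrane anchors, was at 82.2, 77.3 and 88.3 in WT and at 76.1, 59.5 and 63.5 in MCK-Musclin, which did not overlap, with −0.32 ± 0.12 (adjusted p = 0.252, limma).

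All 9 complex III genes were lower, with a median log2 fold change of −0.27, and 2 of them passed an unadjusted p of 0.05. Cyc1, cytochrome c1, which hands electrons to cytochrome c, was at 40.2, 52.1 and 49.3 FPKM in WT and at 39.5, 31.7 and 33.1 in MCK-Musclin. Its mean was 26.4% lower, the log2 fold change −0.43 ± 0.13 (adjusted p = 0.196, limma), and library 1 of MCK-Musclin lay just below library 1 of WT. Uqcrc2, a core subunit, was at 51.7, 51.8 and 52.8 in WT and at 49.8, 39.2 and 37.8 in MCK-Musclin, with −0.30 ± 0.12 (adjusted p = 0.272, limma). The WT libraries differed by little and MCK-Musclin libraries 2 and 3 lay clearly under them. Uqcrfs1, the Rieske iron-sulfur protein, was at 121, 132 and 142 in WT and at 132, 88.4 and 94.4 in MCK-Musclin, where library 1 lay inside the WT range.

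In complex I 34 of 37 genes were lower, with a median log2 fold change of −0.19 and 7 at an unadjusted p under 0.05. Ndufa12, an accessory subunit of the arm that holds the redox centres, had the smallest p of the subunit genes. It was at 212, 220 and 188 FPKM in WT and at 153, 160 and 171 in MCK-Musclin, and here library 1 was the lowest, not the nearest to WT. Its mean was 207 ± 16.3 (SD, n = 3) in WT and 161 ± 8.81 (SD, n = 3) in MCK-Musclin, with a log2 fold change of −0.35 ± 0.10 and an adjusted p of 0.181 in limma. Ndufb9 was at 354, 367 and 388 in WT and at 328, 278 and 264 in MCK-Musclin (−0.35 ± 0.11). Ndufb11 was at 31.6, 36.1 and 32.1 in WT and at 29.8, 24.2 and 24.3 in MCK-Musclin (−0.34 ± 0.12). Both are subunits of the membrane arm, neither overlapped between groups, and both share exon bases with a neighbouring gene. The other complex I genes whose libraries did not overlap were Ndufs1, Ndufa8, Ndufa1, Ndufa9, Ndufa4, Ndufs7 and Ndufb4, which makes 10 in all, with log2 fold changes from −0.33 (Ndufa4) to −0.07 (Ndufb4).

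All 7 complex IV genes were lower, with a median of −0.18, and 0 passed an unadjusted p of 0.05. Cox6c was at 285, 311 and 285 FPKM in WT and at 267, 240.4 and 247 in MCK-Musclin, the only complex IV gene without overlap. Cox6b1 was at 115, 112 and 124 in WT and at 113, 89.99 and 93.2 in MCK-Musclin. Cox5a was at 17.0, 26.0 and 25.8 in WT and at 20.0, 21.1 and 11.8 in MCK-Musclin, a spread in both groups wider than the difference. Complex V showed the smallest median difference, −0.10, with 13 of 16 genes lower, 0 at an unadjusted p under 0.05 and 0 without overlap. Atp5a1, the alpha subunit, was at 248, 205 and 258 in WT and at 239, 185 and 172 in MCK-Musclin. Atp5o, the stalk subunit that confers sensitivity to oligomycin, was at 135, 141 and 127 in WT and at 128, 123 and 94.8 in MCK-Musclin, and Atp5k was at 101, 130 and 74.7 and at 88.6, 77.6 and 74.0. The groups overlapped in all of these. The most positive values were also in complex V. Atp5e, the epsilon subunit, was at 15.0, 17.9 and 17.2 in WT and at 16.5, 21.8 and 16.9 in MCK-Musclin (0.13 ± 0.13), and Atp5g2 was at 11.7, 11.2 and 11.7 in WT and at 11.3, 12.46 and 13.9 in MCK-Musclin (0.11 ± 0.10).

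**Figure D4:**
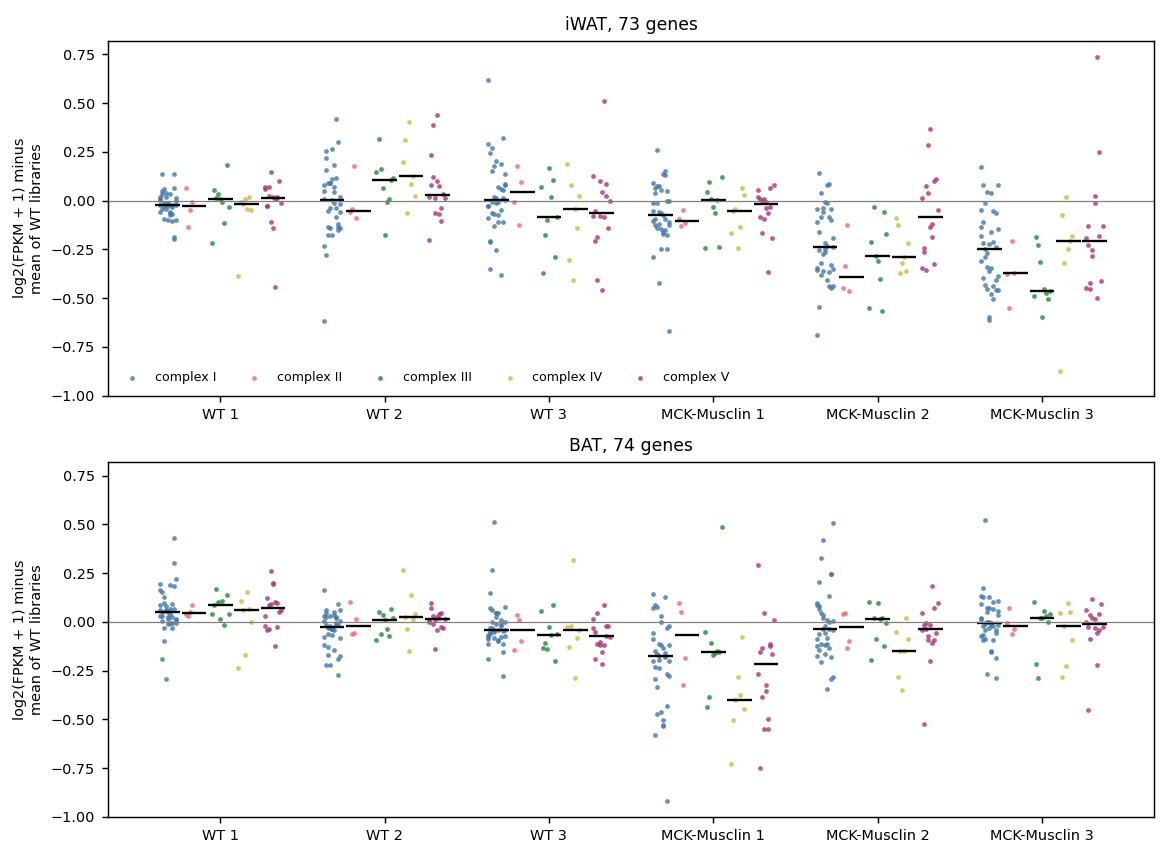
For each iWAT and BAT library, log2(FPKM + 1) of every tested subunit gene minus the mean of the WT libraries, in columns by complex with the median as a black bar. In iWAT the medians of MCK-Musclin libraries 2 and 3 lay between −0.08 and −0.46, and in BAT library 1 was the low one, with −0.40 in complex IV.

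Genes that act with these subunits were counted from lists chosen with earlier results of these data known. Of 14 complex I assembly factors in iWAT, 10 were lower and 1, Ndufaf4, passed an unadjusted p of 0.05, and the list's median log2 fold change was −0.06. Of 31 assembly factors of complexes II to V, 20 were lower, with a median of −0.06, and 0 passed in either direction. Both medians lay nearer to 0 than that of the subunits, and below the 0.06 of all genes. Of all 12197 genes tested in iWAT, 38.7% were lower, and 3.44% were lower at an unadjusted p under 0.05. Of 13 regulators tested, 8 were lower, with 2 passing: Ppargc1a, the coactivator PGC-1alpha, was at 7.16, 7.23 and 6.51 FPKM in WT and at 6.34, 2.96 and 2.01 in MCK-Musclin, and Nfe2l2 was at 45.9, 40.1 and 44.2 and at 36.4, 36.8 and 33.6. Neither gene's groups overlapped, and neither passed the adjusted threshold (adjusted p = 0.233 and 0.220, limma).

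Of 13 respiratory chain genes that the naming rule leaves out, 10 were lower in iWAT, where 38.7% of all genes tested were. Cox7a1, the heart and brown fat isoform of a complex IV subunit, was at 80.7, 177 and 196 FPKM in WT and at 90.5, 40.1 and 11.7 in MCK-Musclin, the same order of libraries as Ucp1. Cycs, cytochrome c, was at 148, 141 and 163 in WT and at 149, 90.8 and 85.4 in MCK-Musclin, and Etfdh, which feeds electrons from fatty acid oxidation into ubiquinone, was at 92.6, 109 and 111 and at 98.9, 61.0 and 58.9. All of these had an unadjusted p under 0.05, and MCK-Musclin library 1 overlapped WT in each. Atpif1 stood against the trend. It encodes the inhibitor that binds ATP synthase and was at 230, 242 and 206 in WT and at 299, 323 and 345 in MCK-Musclin, without overlap and with library 1 the nearest to WT, a log2 fold change of 0.51 ± 0.11 (adjusted p = 0.143, limma). Cox4i2 was higher too, at 33.0, 31.2 and 29.2 in WT and 36.9, 39.8 and 50.9 in MCK-Musclin. So was Cox7a2l, at 43.2, 40.4 and 41.7 in WT and 48.9, 50.5 and 45.4 in MCK-Musclin, without overlap but at an unadjusted p above 0.05.

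The second genotype comparison asked the same of brown fat, where the subunit genes stood at higher levels, and again no single subunit gene was called. Of 74 tested, 58 were lower in MCK-Musclin, 78.4% against 52.3% of all 10893 genes tested, with a median log2 fold change of −0.08 against −0.01. None reached an adjusted p of 0.05 (smallest 0.929, limma), while 1 of all genes did (0.00918%). At an unadjusted p under 0.05, 4 subunit genes (5.41%) were lower against 2.71% of all genes, and 0 were higher against 2.18%. The groups did not overlap in 15 genes that were lower in MCK-Musclin (20.3%, against 5.63%) and in 2 that were higher (2.70%, against 4.38%), which were Sdhb and the processed pseudogene Ndufb4c, a near copy of Ndufb4. Atp5g1, Ndufa11b, Ndufs6b, Cox7b2 and the second Atp5o entry were below the filter.

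Library 1 of MCK-Musclin BAT stood apart. The median distance of a subunit gene from its WT mean was −0.18 there on the log2 scale, against −0.04 in library 2 and −0.004 in library 3, and without it the median log2 fold change was −0.02. The number lower at an unadjusted p under 0.05 was then 2, and 2 were higher. The number lower was also 2 when WT library 1 or 2 was left out, 8 without MCK-Musclin library 2 and 7 without library 3. Fast muscle markers were higher in MCK-Musclin BAT in 13 of 13, with a median log2 fold change of 0.86. At an unadjusted p under 0.05, 12 of these markers were higher (against 2.18% of all genes). Library 1 had their highest sum, 1883 FPKM against 884 and 1274 in the other MCK-Musclin libraries and 532 to 842 in WT, and the highest sum of macrophage markers, 110 against 35.8 to 45.6 in the other 5. The part of these in the subunit values was not tested. Centred on adipocyte markers, the BAT median was 0.01. Ostn was at 37.9, 31.6 and 30.4 in MCK-Musclin BAT and at 0 in all 3 WT libraries. The summed level of brown and beige fat markers overlapped between genotypes, at 7850 to 8405 in WT and 7012 to 8244 in MCK-Musclin, and Ucp1 was at 3792, 3095 and 2778 in WT and 3500, 2864 and 3607 in MCK-Musclin.

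Among the subunit genes with the smallest p in BAT, Atp5k, a small membrane subunit of ATP synthase that helps its dimers form, came first. It was at 372, 359 and 300 FPKM in WT and at 203, 237 and 250 in MCK-Musclin, a mean 33.0% lower without overlap and a log2 fold change of −0.58 ± 0.12 (n = 3 per group, limma, adjusted p = 0.929). Cox5b of complex IV was at 685, 648 and 583 in WT and at 449, 523 and 523 in MCK-Musclin (−0.36 ± 0.10). Uqcr10 of complex III was at 600, 583 and 513 in WT and at 416, 492 and 486 in MCK-Musclin (−0.28 ± 0.10). In these genes all 3 MCK-Musclin libraries lay under WT, so the difference did not rest on library 1 alone. Ndufa4 was at 206, 193 and 149 in WT and at 134, 147 and 148 in MCK-Musclin, where WT library 3 all but met the transgenic libraries. Ndufc1 of complex I was at 331, 312 and 305 in WT and at 167, 279 and 278 in MCK-Musclin, where library 1 was far below the other two.

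Some genes went the other way in library 1 of MCK-Musclin BAT. Uqcrq of complex III was at 981 FPKM there and at 672 to 722 in the other 5 libraries, and Atp5a1 was at 755 there and at 608 to 635 elsewhere. Ndufb5 was at 49.5, 47.0 and 64.0 in WT and at 55.9, 66.7 and 76.7 in MCK-Musclin, the most positive log2 fold change of the subunit genes at 0.31, with overlap between the groups.

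Some genes appeared in both comparisons and others did not. Atp5k was among the genes with the smallest p of its complex in each tissue, but in iWAT by rank alone. There its unadjusted p was 0.151 (limma) and its groups overlapped. Of the 15 genes lower without overlap in each tissue, only Ndufa4 and Ndufs7 were so in both. The share of all genes lower without overlap in both tissues was not counted. Sdha, lower in iWAT, was at 726, 758 and 639 in WT BAT and at 756, 725 and 702 in MCK-Musclin BAT, and Cyc1 was at 179, 162 and 180 and at 167, 186 and 186. In both genes the BAT groups overlapped. Across the 72 genes tested in both tissues, 67 were lower in iWAT, 57 in BAT and 54 in both. Counts this large in each tissue make most genes lower in both, so the 54 shows no link between the tissues. The same count over all genes was not made. Pearson's r between the log2 fold changes was −0.08, a description over genes that share libraries within each tissue. By complex, the BAT medians were −0.05 for complex I, −0.03 for complexes II and III, −0.21 for complex IV and −0.08 for complex V. Complex IV thus had the largest median difference in BAT and complex II in iWAT, and this contrast was not tested. In BAT the median distance of complex IV genes from WT was −0.40, −0.15 and −0.02 in MCK-Musclin libraries 1 to 3. Library 1 thus carried most of that difference.

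**Figure D5:**
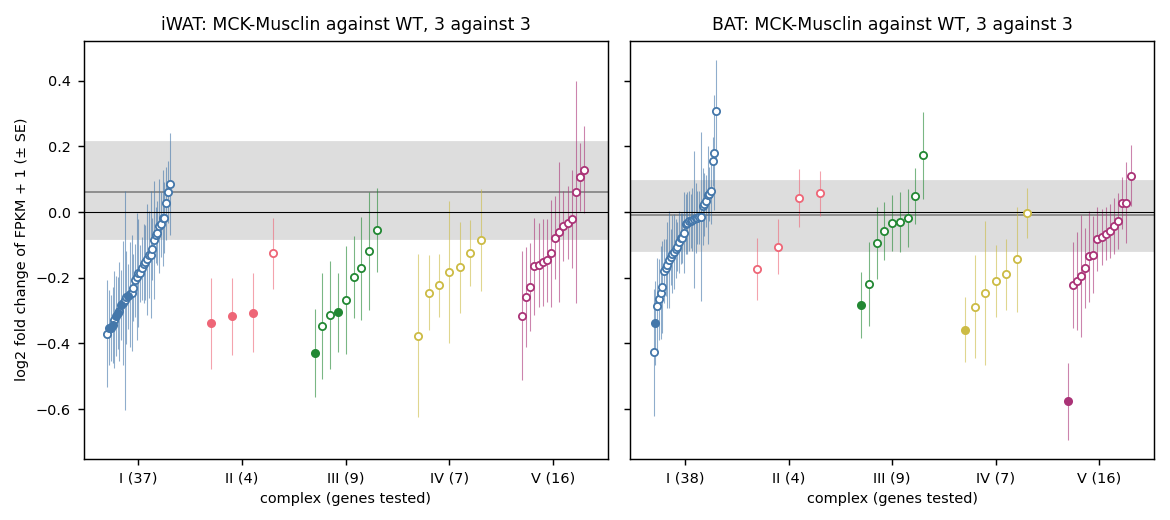
Log2 fold change of FPKM + 1, MCK-Musclin against WT, for each tested subunit gene with its limma standard error, by complex, in iWAT (left) and BAT (right), filled where the unadjusted p was under 0.05. The grey band spans the middle 50% of all genes tested and the grey line their median, 0.06 in iWAT and −0.01 in BAT. In iWAT all genes of complexes II, III and IV lay below 0.

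The related lists in BAT had few members past an unadjusted p of 0.05. Of 14 complex I assembly factors 3 were lower and 11 higher, with 0 past that level, and of 31 factors of complexes II to V 20 were lower, with Ttc19 passing as higher. Of 13 regulators 5 were lower and 0 passed. Of all 10893 genes tested in BAT, 52.3% were lower. At an unadjusted p under 0.05, 2.71% were lower and 2.18% higher. Among the respiratory chain genes outside the naming rule, Cox8b was at 843, 836 and 885 FPKM in WT and at 571, 690 and 768 in MCK-Musclin. Cox7a2l was at 54.7, 54.0 and 50.1 in WT and at 45.5, 43.9 and 44.5 in MCK-Musclin. Both were lower without overlap and had an unadjusted p under 0.05. Cox7a2l thus went the opposite way to iWAT, where it was higher. Cox6a2, the muscle isoform, was higher, at 10.3, 16.9 and 7.71 in WT and 36.1, 16.9 and 20.0 in MCK-Musclin, the same order of libraries as the fast muscle markers.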

How the data were processed

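RNA-seq was made from oligo(dT)-selected mRNA of 19 libraries. The authors filtered reads with fastp and Bowtie2, aligned them unstranded to mm10/GRCm38 with HISAT2 2.1.0 and deposited StringTie FPKM values per gene (the labels' processing notes also name Cuffdiff). FPKM holds no read counts, so depth is unknown and no counting interval is given. The authors' comparison columns (fold changes and p-values of the iWAT table) were not used. Of the lines in the 7-tissue and BAT tables, 287 each repeated a gene with identical values and were dropped. The iWAT table lists 13756 genes, has no mitochondrially encoded gene and lacks 6 of the 79 members.

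Values were tested as log2(FPKM + 1) with limma 3.58.1 in R 4.3.3 (moderated test with trend, Benjamini-Hochberg over every gene averaging 1 FPKM or more, two-sided, 3 libraries against 3), each table on its own and checked on simulated data. Fold changes on this scale understate those of low genes. The study's methods used DESeq2 on counts, which FPKM values do not allow. An exact permutation test of 3 against 3 cannot go below 0.1. The study states that RNA for sequencing came from separate animals of each genotype; the labels do not tie libraries to animals, and p-values measure the spread between these libraries.

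The members and lists were chosen with earlier results of these data known. Genes described one by one in iWAT (each library given) were the 3 smallest p in each complex and the 2 most positive fold changes. In BAT they were the 5 smallest p (each library given). In the 7 tissues they were the gene with the highest median in each complex and the 8 that departed most from their complex. Sets of paralogs or like-named genes were added there. Ndufb5, Uqcrq and Atp5a1 in BAT, and Sdha and Cyc1 there, were named after their values were seen. Exons of Ndufb9, Ndufb11, Uqcrc2, Cox6c, Cox5a, Atp5a1, Atp5o and Atp5g2 overlap other genes, and reads of Ndufb4 and Ndufb4c may be shared. Windows and sequences came from RefSeq (GRCm38.p6), and gene positions from GENCODE.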

Additional observations from a re-analysis of the deposited data

How the results depend on the processing

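No subunit gene reached an adjusted p of 0.05 in iWAT or BAT under any alternative run. The iWAT numbers, with main values of 12 lower, 0 higher, 15 without overlap and a median of −0.171, moved with the scaling: rescaling to TPM gave 20, 23 (without overlap) and a median of −0.225, median-ratio scaling 23, 25 and −0.249, and quantile normalization a median of −0.227. Centring on adipocyte markers gave 0 lower, 2 higher, 0 without overlap and a reversed median of 0.0301. In BAT (4 lower, 0 higher, 15 without overlap, median −0.0773) the number higher became 1 with no filter and 2 on TPM, and the number without overlap 8 under median-ratio scaling and 9 under quantile normalization. Centring gave 1 lower, 1 higher, 1 without overlap and a reversed median of 0.0150. The cause of these moves was not tested. In the 7 tissues, genes highest in tibialis anterior went from 3 to 7 on TPM, 31 under median-ratio scaling and 1 with mitochondrially encoded genes removed (a scaling chosen after seeing the data), and those highest in brown adipose from 56 to 24 under median-ratio scaling.

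Leaving out 1 library at a time gave, in iWAT, 2 to 22 lower, 16 to 36 without overlap (fewer libraries overlap more rarely) and medians of −0.258 to −0.130, and in BAT 2 to 8 lower, 0 to 2 higher, 15 to 25 without overlap and medians of −0.109 to −0.0200. Without iWAT WT library 3, the one with most muscle messages, 8 were lower, 29 were without overlap and the median was −0.213. None of the iWAT and BAT genes named by rule changed direction under these alternatives. Correlations of same-numbered deviations were 0.235, 0.0615 and 0.107 in iWAT, where differently numbered libraries gave −0.18 to 0.0702. In BAT they were −0.0951, −0.00463 and 0.00937, against −0.0842 to 0.0795. Whether libraries of the same number shared handling was not tested, and the main runs did not pair them. With a replicate block 13 genes were lower in iWAT, and in BAT 3 were lower and 1 higher. Precision is limited by 3 libraries per group and 1 per tissue.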
